A study of Mus musculus with 6 samples.

Results

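The mammalian cytosolic ribosome is built from ribosomal RNA and a fixed set of ribosomal proteins, named Rpl for the large and Rps for the small subunit. Many of their messenger RNAs begin with a C followed by a run of pyrimidines, the terminal oligopyrimidine (TOP) tract, through which mTOR and LARP1 set their translation together. Most of these genes have left processed pseudogenes elsewhere in the mouse genome, which are intronless copies close to the spliced RNA. In the tooth, ameloblasts and odontoblasts make large amounts of secreted matrix protein on such ribosomes.

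The genes described here are the rows whose symbol follows the ribosomal protein pattern (Rpl, Rps or Rplp with a number and at most 1 of the letters a, x, l or y), together with Rpsa and Fau, and without names marked as pseudogenes by -ps. These were 88 of the 20161 gene rows of the deposited normalized table, 51 of the large and 37 of the small subunit. By the annotation 5 of them, Rpl6l, Rps12l1, Rps3a2, Rps3a3 and Rps4l, are themselves pseudogenes. Of the 88, 86 passed the filter on low counts and were tested, 50 large and 36 small. Rpl3l, with 17 counts over all libraries, and Rps12l1, with 48, did not pass. Rpl36al lies outside the naming rule.

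RNA came from first molar tooth germs of C57BL/6 mice at postnatal day 7. Libraries came from 3 wild-type (WT) samples and from 3 samples of littermates lacking Gpr115 (Gpr115-/-, labelled Gpr115-KO), an adhesion G protein-coupled receptor listed as Adgrf4. The labels give the genotype alone, and neither the deleted exons nor whether germs of several animals were pooled. P-values therefore measure the spread between these libraries, which may be in part technical.

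Libraries held 8317302 to 11122821 counts in gene rows. Adgrf4 (chr17:42656891-42692284) had 62.5 to 67.5 counts per 1000000 counts of the scaled library (CPM) in WT and 20.6 to 39.2 CPM in Gpr115-KO. Its log2 fold change was −1.18 (SE 0.21, adjusted p = 0.0887 in edgeR), so the deleted gene itself was not called at 0.05. The ameloblast markers, enamel matrix and protease genes that define the tissue, were all measured (7 of 7) and summed to 113062, 128055 and 146101 CPM across WT and to 126545, 203616 and 96407 CPM across Gpr115-KO. Gpr115-KO replicate 2 stood apart in skeletal muscle markers (6 of 8 tested), with a sum of 199 CPM against 30.9 to 53.5 CPM in WT and in Gpr115-KO replicate 3, and 19.6 CPM in Gpr115-KO replicate 1. The erythroid markers (7 of 9 tested) summed to 140, 143 and 161 CPM across WT and to 308, 397 and 161 CPM across Gpr115-KO. In whole tissue, fewer cells of a type and less RNA per cell cannot be told apart.

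The start of each gene is shown first for members that return in the results. RefSeq (GRCm38.p6) start windows were matched for 63 members. Each line gives 30 bases from 10 bases before the annotated start, 5′ to 3′ on the gene's strand, with the start tract (a C and at least 4 further pyrimidines, beginning within 5 bases of the start) in capitals. Rps6 (chr4:86857348-86857377, minus), Rps18 (chr17:33955646-33955675, minus), Rps10 (chr17:27635225-27635254, minus), Fau (chr19:6057937-6057966, plus), Rpl22l1 (chr3:28805498-28805527, plus) and Rps27 (chr3:90213629-90213658, minus) hold it, and Rps2 (chr17:24720053-24720082, plus) holds a short one. Rps25 (chr9:44407704-44407733, plus), Rpl5 (chr5:107900518-107900547, plus) and Rps28 (chr17:33824543-33824572, minus) have no such tract in this window and so no capitals.
Rps6: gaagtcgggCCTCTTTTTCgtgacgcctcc
Rps18: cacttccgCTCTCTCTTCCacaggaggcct
Rps10: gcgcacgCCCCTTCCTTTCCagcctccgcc
Fau: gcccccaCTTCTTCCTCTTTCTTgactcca
Rpl22l1: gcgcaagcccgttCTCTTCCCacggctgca
Rps27: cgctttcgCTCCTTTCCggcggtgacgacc
Rps2: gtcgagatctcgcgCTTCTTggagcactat
Rps25: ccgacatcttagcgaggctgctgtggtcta
Rpl5: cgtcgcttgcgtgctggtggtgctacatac
Rps28: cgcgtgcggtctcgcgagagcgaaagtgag

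The tract was found in 30 of the 63 members (47.6%), in 44.7% of large and 52% of small subunit genes, against 21.2% of 27025 genes with a start window. The ETS-family motif CCGGAAG, searched on both strands from 250 bases before to 50 bases after the start, was present in 26 of 63 members (41.3%) and in 9.93% of all genes. The YY1-type motif AAGATGGC was present in 7 of 63 and in 3.19% of all genes. These 2 motifs share the letters AAG and can overlap. A match describes letters in an annotated window and is not a measured start or site.

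Most ribosomal protein genes had a fold change slightly above 0 in Gpr115-KO, and none passed the test. Of the 86 tested members 80 had a log2 fold change above 0, where 51.3% of all 16011 tested genes did. Their median was 0.36 (quartiles 0.20 and 0.46), and that of all tested genes 0.01 (quartiles −0.24 and 0.24). In edgeR's quasi-likelihood test 0 members were called higher and 0 lower at an adjusted p under 0.05, where 0.0375% of all genes were called higher and 0.112% lower, and the smallest adjusted p of a member was 0.0976. At an unadjusted p under 0.05 there were 11 higher and 0 lower members, beside 4.85% and 7.48% of all genes. DESeq2's Wald test called 2 members higher and 0 lower, beside 0.406% and 1.15% of all genes.

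The shift was uneven between libraries. Members summed to 13236, 14943 and 17456 CPM in WT (15212 ± 2123, SD, n = 3) and to 14082, 23032 and 16696 CPM in Gpr115-KO (17937 ± 4602, SD, n = 3). Gpr115-KO replicate 2 was the highest, WT replicate 1 the lowest, and the other 4 libraries of both genotypes overlapped. Of the 86 members 77 were highest in Gpr115-KO replicate 2, beside 26.3% of all genes, and 60 were lowest in WT replicate 1, beside 20.5%. The median deviation of a member from its own mean over the libraries, on the log2 scale, was −0.38, −0.11 and 0.04 across WT and −0.15, 0.60 and 0.04 across Gpr115-KO. All 3 Gpr115-KO libraries lay above all 3 WT libraries for 8 members (Rpl17, Rpl4, Rpl6l, Rps18, Rps2, Rps3a3, Rps4x and Rps7) and below them for 0. Of all genes 8.55% lay above in this way and 8.99% below, so the 8 are close to the background.

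**Figure D1:**
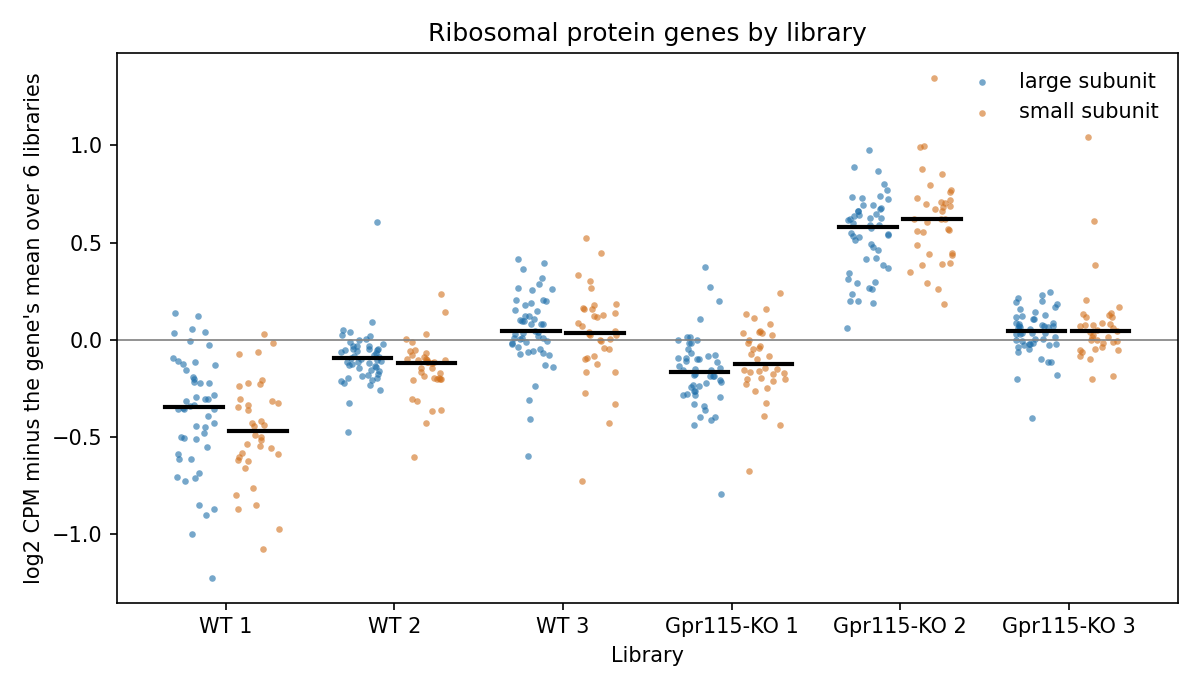
Log2 CPM of each tested ribosomal protein gene minus that gene's mean over the 6 libraries (y axis) in each library (x axis), with large subunit genes in blue, small subunit genes in orange and the median of each subunit as a black bar. Gpr115-KO replicate 2 lies above the other libraries and WT replicate 1 below them, while both subunits stay close to each other within each library.

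The shift was smaller without either of the 2 libraries at the ends. Without Gpr115-KO replicate 2 the median log2 fold change was 0.09 for large and 0.13 for small subunit genes, and without WT replicate 1 it was 0.16 and 0.27. With both left out, a choice made after seeing the data, it was −0.057 and 0.0089, and 39 of 86 members lay above 0. These libraries were the ends of the members' own values, so a smaller shift without them follows from that choice. Without WT replicate 3 the medians were 0.43 and 0.52, and without Gpr115-KO replicate 1 also 0.43 and 0.52. Gpr115-KO replicate 2 is also the library with the highest muscle, erythroid and ameloblast marker sums given above. Of these, 1 erythroid and 0 muscle or ameloblast markers were at 0 in some library. Other marker sets did not peak there. Odontoblast markers summed to 42817, 72279.8 and 92511.7 CPM across WT and to 68369.5, 47420.5 and 80049.7 CPM across Gpr115-KO. Keratinizing epithelium markers summed to 136, 35.6 and 116 CPM across WT and to 272, 35.9 and 51.3 CPM across Gpr115-KO. Leukocyte markers were highest in Gpr115-KO replicate 3, at 121 CPM against 112 CPM in replicate 2. The part of any of these markers in the shift was not tested.

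A trend with transcript length differed between libraries. Ribosomal protein transcripts are short, with a median principal transcript of 906 nt for large and 794 nt for small subunit members against 3054.5 nt over protein-coding genes. Across 12859 protein-coding genes, which are not independent replicates, Spearman's rho between exonic length and a gene's deviation in a library was 0.25, 0.23 and −0.0073 for WT replicates 1 to 3, and −0.0038, −0.26 and −0.11 for Gpr115-KO. With principal transcript length, rho was 0.25, 0.20 and 0.016 for WT replicates 1 to 3, and 0.0060, −0.26 and −0.087 for Gpr115-KO. In the same order the members deviated by −0.38, −0.11 and 0.04 across WT and by −0.15, 0.60 and 0.04 across Gpr115-KO. Protein-coding genes of at most 1000 nt that are not members (702 genes) stood at a median of 0.22 (log2), and the 53 members of that length at 0.37, with 51 above 0. With the trend of each library on exonic length removed, the medians of large and small subunit genes were 0.22 and 0.31, and 73 of 86 members lay above 0. With the trend on principal transcript length removed, an alternative added after seeing the data, they were 0.15 and 0.21, with 64 of 86 above 0. The part of length in the shift was not tested.

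**Figure D2:**
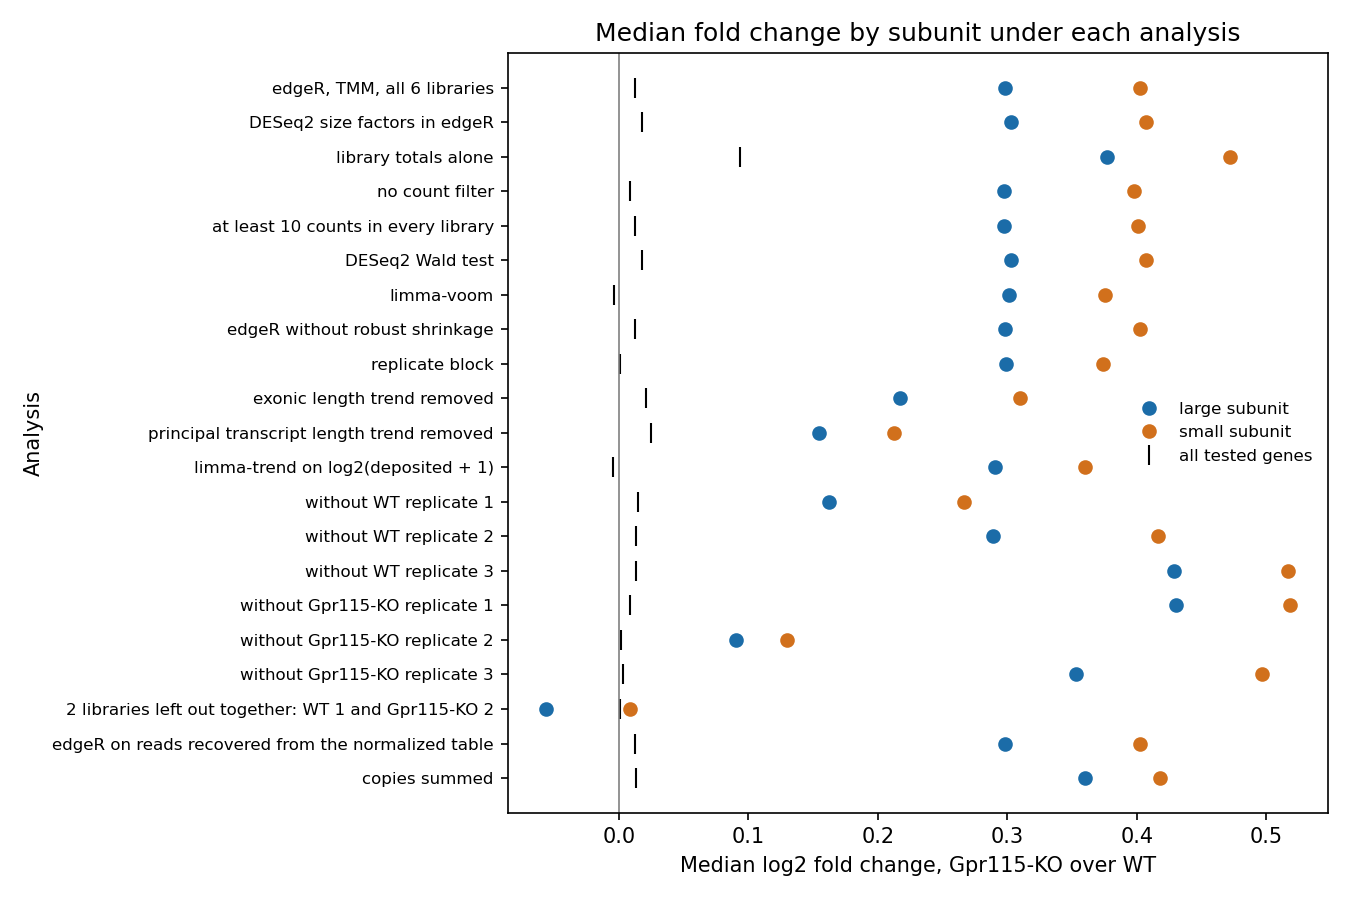
Median log2 fold change (x axis) of large (blue) and small (orange) subunit genes under each analysis (y axis), with the median of all tested genes as a black tick. The small subunit median lies to the right of the large one in every analysis drawn, and both come to −0.057 and 0.0089 when WT replicate 1 and Gpr115-KO replicate 2 are left out together.

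The subunits were compared next, since every ribosome holds 1 copy of almost all of these proteins. The median log2 fold change was 0.30 for the 50 large subunit genes (46 above 0, quartiles 0.17 and 0.45) and 0.40 for the 36 small subunit genes (34 above 0, quartiles 0.29 and 0.49). The difference between these medians was not tested. The ratio of summed small to large subunit CPM was 0.727, 0.760 and 0.800 across WT and 0.792, 0.828 and 0.789 across Gpr115-KO, so the genotypes overlapped. Rps25 alone weighs heavily in this ratio. Without it the ratio was 0.476, 0.517 and 0.511 across WT and 0.578, 0.613 and 0.539 across Gpr115-KO, and the genotypes did not overlap. That ratio was formed after the level of Rps25 had been seen, and Rps2 and Rps18, described below, also enter it.

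**Figure D3:**
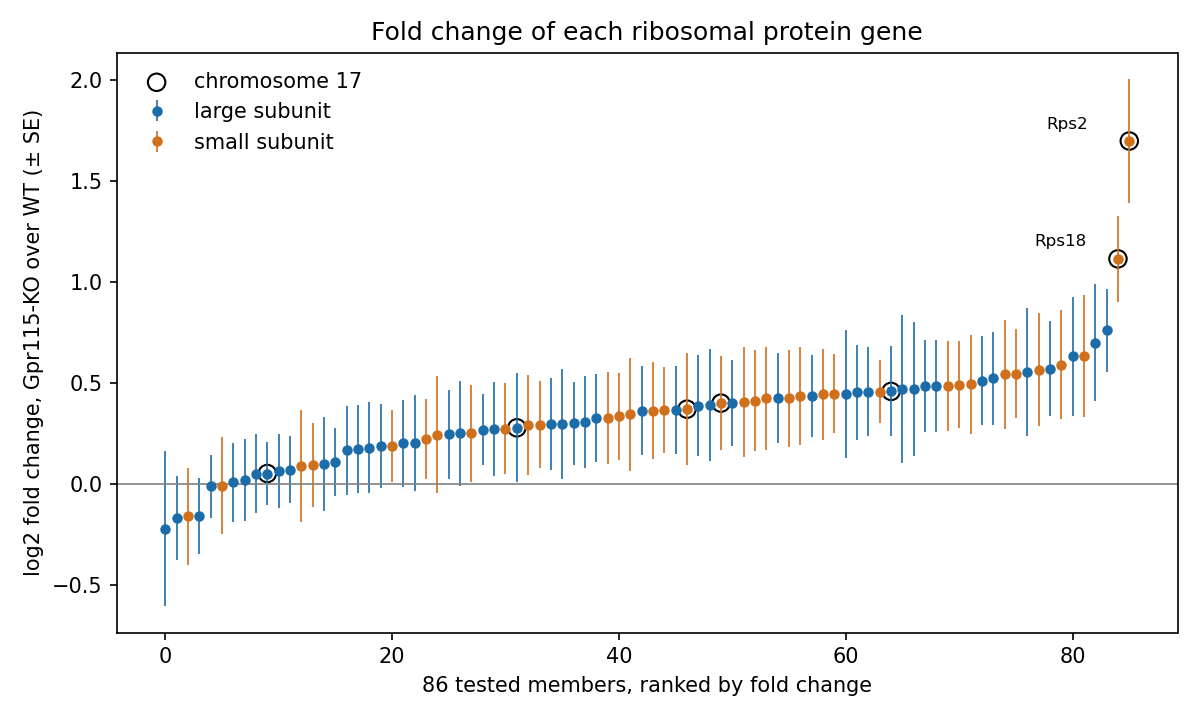
Log2 fold change of Gpr115-KO over WT with its standard error (y axis) for the 86 tested members ranked by fold change (x axis), large subunit in blue and small subunit in orange. Rps2 and Rps18 stand above the other members at 1.70 and 1.11, and both are among the 7 chromosome 17 members, which are circled.

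Among large subunit genes, those of the P stalk, which recruits the elongation factors, had log2 fold changes of 0.31 or less. Rplp0, the stalk base, had 317, 346 and 415 CPM across WT and 366, 604 and 363 CPM across Gpr115-KO. Gpr115-KO replicate 2 alone lay above the WT range, and the log2 fold change was 0.31 (SE 0.23). Rplp1 had 0.25 (SE 0.26) and Rplp2 0.0076 (SE 0.20), whose products are assembled with it in 1 complex. The products of Rpl5 and Rpl11 carry 5S ribosomal RNA into the large subunit and, when free, can bind MDM2. Rpl5 had 877, 754 and 910 CPM across WT and 629, 831 and 819 CPM across Gpr115-KO, a log2 fold change of −0.16 (SE 0.19). Rpl11 had 121, 142 and 155 CPM across WT and 131, 239 and 167 CPM across Gpr115-KO, or 0.36 (SE 0.22). These partners thus had point estimates on opposite sides of 0, with overlapping libraries in both.

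Rpl13 and Rpl7 lay on opposite sides of 0. Rpl13 had 194, 193 and 222 CPM across WT and 218, 422 and 264 CPM across Gpr115-KO, a log2 fold change of 0.57 (SE 0.23). Of the Gpr115-KO libraries, replicate 1 lay within the WT range and the others above it. Rpl7 had 793, 673 and 878 CPM across WT and 537, 837 and 711 CPM across Gpr115-KO, or −0.17 (SE 0.21), and Rpl23, which encodes a protein of the subunit interface, −0.01 (SE 0.16). Rpl5, Rpl7, Rpl23 and Rpl39l were the 4 large subunit members below 0, and Rps12 (−0.16, SE 0.24) and Rps25 (−0.0096, SE 0.24) the 2 small ones. The edgeR adjusted p of these 6 ranged from 0.776 for Rpl5 to 0.992 for Rps25.

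Small subunit genes tied to signalling, disease or adhesion were likewise highest in Gpr115-KO replicate 2. Rps6, the substrate of S6 kinase and a common readout of mTOR activity, had 196, 247 and 245 CPM across WT and 235, 423 and 277 CPM across Gpr115-KO. The genotypes overlapped, and the log2 fold change was 0.44 (SE 0.23). Rps19, mutated in many cases of Diamond-Blackfan anaemia, had 243, 318 and 350 CPM across WT and 308, 557 and 355 CPM across Gpr115-KO, or 0.42 (SE 0.24). Rpsa, also known as a laminin receptor, had 61.8, 70.9 and 70.6 CPM across WT and 66.8, 134 and 74.8 CPM across Gpr115-KO, or 0.44 (SE 0.24). In these 3 genes Gpr115-KO replicate 1 lay inside the WT range.

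Fau and Rps27a are made as fusions with a ubiquitin or ubiquitin-like domain that is cut off after translation. Fau, which yields RPS30, had 93.4, 125 and 151 CPM across WT and 140, 260 and 139 CPM across Gpr115-KO, a log2 fold change of 0.54 (SE 0.27). Rps27a, which yields ubiquitin and RPS27A, had 89.7, 128 and 144 CPM across WT and 128, 260 and 147 CPM across Gpr115-KO, or 0.56 (SE 0.28). Both passed neither the adjusted nor the unadjusted threshold. Rps7 had 73.8, 95.6 and 105 CPM across WT and 107, 179 and 115 CPM across Gpr115-KO. Its genotypes did not overlap, by a narrow gap, and its log2 fold change was 0.55 (SE 0.22, adjusted p = 0.355 in edgeR).

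Levels per kilobase of transcript differed widely between members although their products are assembled in near-equal numbers. The highest was Rps25 with 1767 ± 367 CPM per kb in WT and 1755 ± 407 in Gpr115-KO (SD, n = 3), followed by Rpl3 with 762 ± 66.3 and 773 ± 156. Rpl41, whose product is a very short peptide, had 614 ± 251 and 850 ± 283, and Rpl7 had 672 ± 88.6 and 598 ± 129. Rpl3, Rpl41 and Rpl7 do not differ in order beyond their spread. Exons of Rps25 overlap Ccdc84 and Trappc4, and the libraries do not mark strand, so its reads cannot be separated from theirs.

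At the low end, Rpl39l had 4.72 ± 1.46 CPM per kb in WT and 4.02 ± 1.59 in Gpr115-KO, Rpl24 had 5.77 ± 1.23 and 7.88 ± 2.24, and the pseudogenes Rps3a2 and Rps4l had 9.52 ± 1.40 and 10.8 ± 1.95 in WT (SD, n = 3). Rpl24 encodes a standard component of the large subunit. Its row held 269 counts over all libraries, and 3 near-identical rows held 4499. Exons of Rpl24 also overlap Gm28037 on the same strand, so shared reads cannot be told apart. The level given is that of the Rpl24 row alone. Across the 86 tested members, Spearman's rho between level per kb and the number of near-identical rows was −0.02, a description over genes that share libraries.

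Near-identical rows were therefore counted for every member. A row was taken as a copy where it aligned to a member's transcript over 150 nt or more, with an identity of at least 95%, and over at least 50% of its length. There were 516 such rows for 76 members, and 4 of them (Rpl6l, Rps12l1, Rps3a2 and Rps3a3) are members themselves. The rule by which reads shared between a gene and its copies were assigned was not among the sources. Of 315 tested copies 286 lay above 0, and their median was 0.50 on the log2 scale. The libraries did not overlap for 103 of them with Gpr115-KO above and 7 with Gpr115-KO below, against 8.55% and 8.99% of all genes.

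The copies took 19.9%, 20.6% and 20.6% of the counts of their families in WT, and 25.6%, 21.6% and 20.8% in Gpr115-KO (95% Wilson intervals, which cover counting error only, lay between 19.8% and 20.8% for WT and between 20.7% and 25.9% for Gpr115-KO). Gpr115-KO replicate 1 had the highest share. The other 5 libraries lay between 19.8% and 21.8%, intervals included. Of 289 tested copies of members outside chromosome 17, 0 were called. Of 26 tested copies of the chromosome 17 members 4 were called, all lower. Of all genes 0.0375% were called higher and 0.112% lower.

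Chromosome 17 also carries Adgrf4, and 7 tested members lie there (positions on GRCm38). Rps2 and Rps18 were the members with the smallest p. Rps2 (chr17:24718116-24721929), a protein near the entry of the messenger RNA channel, had 31.8, 44.2 and 40.6 CPM across WT and 68.3, 171 and 138 CPM across Gpr115-KO. The genotypes did not overlap, and the fold change was 3.24 (log2 1.70, SE 0.31, adjusted p = 0.0976 in edgeR). Rps18 (chr17:33951999-33956001), in the head of the small subunit, had 60.8, 76.6 and 76.5 CPM across WT and 122, 206 and 135 CPM across Gpr115-KO. Its genotypes did not overlap either, and the fold change was 2.16 (log2 1.11, SE 0.21, adjusted p = 0.0976 in edgeR).

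Neither passed in edgeR with all 6 libraries, the count filter and genotype as the only term. Both were called by DESeq2 (adjusted p = 9.3e-06 for Rps2 and 0.0006 for Rps18). Rps2 was also called without Gpr115-KO replicate 1, at a log2 fold change of 1.99 (adjusted p = 0.0047 in edgeR), beside 0.0543% of all genes higher and 0.235% lower. Without a count filter Rps2, Rps18 and Rpl6l were called (0 members lower), beside 0.463% of all rows higher and 1.25% lower. Over all alternatives the adjusted p ran up to 0.753 for Rps2 and 0.43 for Rps18. The direction was upward for both in each of the 20 alternatives, 1 of which used the same reads again.

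The other chromosome 17 members were close to the rest. Rps10 (chr17:27630418-27636669) had a log2 fold change of 0.40 (SE 0.23), Rpl10a (chr17:28328471-28331033) 0.46 (SE 0.22) and Rps28 (chr17:33819027-33824562) 0.37 (SE 0.28). Rpl7l1 (chr17:46773907-46782672), the member nearest to Adgrf4, had 0.05 (SE 0.15), and Rpl36 (chr17:56613416-56614243) had 0.28 (SE 0.27). In all 5 the libraries of the genotypes overlapped. Exons of Rps2 overlap Snhg9 and Snora64, those of Rps18 overlap Vps52 and those of Rps28 overlap Kank3, so shared reads cannot be told apart. The median of the 79 tested members on other chromosomes was 0.34.

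The 4 called copies belong to Rps2, Rps18 and Rps28, which makes it useful to see how close gene and copy are. Below is a stretch of the coding sequence of Rps18 with the same stretch of Gm10260, a row on chromosome 13, and one of Rps28 with Gm10263, also on chromosome 13. Capitals mark the base that differs. Over the 456 coding bases of Rps18 the copy differed at 4 positions (T186C, A337C, G371A and G431A, counted from 1 at the first coding base, gene first), an identity of 99.1%. Over the 207 coding bases of Rps28 it differed at 1 (G163A), an identity of 99.5%.
Rps18, coding bases 341 to 400: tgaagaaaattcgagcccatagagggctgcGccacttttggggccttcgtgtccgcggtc
Gm10260, same stretch: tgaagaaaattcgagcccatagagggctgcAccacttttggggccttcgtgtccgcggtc
Rps28, coding bases 133 to 192: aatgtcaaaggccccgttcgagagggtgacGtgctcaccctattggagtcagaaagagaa
Gm10263, same stretch: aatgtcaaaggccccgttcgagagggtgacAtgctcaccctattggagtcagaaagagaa

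Each of these copies was lower in Gpr115-KO while its gene was not. Rps2-ps10 had 136, 141 and 165 counts across WT and 13, 19 and 18 counts across Gpr115-KO (log2 fold change −3.12, SE 0.27, adjusted p = 0.000827 in edgeR). Gm10260 had 159, 156 and 195 counts across WT and 32, 34 and 28 counts across Gpr115-KO (−2.40, SE 0.25, adjusted p = 0.00219 in edgeR). Gm26619, a noncoding row that also matches Rps18, had 146, 161 and 222 counts across WT and 34, 45 and 25 counts across Gpr115-KO (−2.31, SE 0.31, adjusted p = 0.0133 in edgeR). The library groups lay far apart in all of these. Gm10263 had 120, 163 and 221 counts across WT and 32, 13 and 11 counts across Gpr115-KO (−3.12, SE 0.46, adjusted p = 0.0401 in edgeR).

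With gene and copies summed, the fold changes of Rps2, Rps18 and Rps28 were smaller, and 0 members were called, beside 0.0382% of all rows higher and 0.0765% lower. Rps2 took 55.0%, 57.8% and 55.7% of the counts of its family in WT (95% Wilson intervals between 51.1% and 61.5%) and 86.4%, 88.2% and 92.3% in Gpr115-KO (intervals between 83.7% and 93.5%). The family, with 23 copies, summed to 57.9, 76.5 and 72.8 CPM across WT and to 79.0, 194 and 150.0 CPM across Gpr115-KO, a log2 fold change of 1.04 (SE 0.29, adjusted p = 0.263 in edgeR) against 1.70 for the row alone. Gpr115-KO replicate 1, at 79.0 CPM, lay just above the highest WT library at 76.5 CPM. Rps18 took 62.3%, 61.1% and 58.1% of its family in WT (intervals between 55.4% and 65.1%) and 82.2%, 88.1% and 87.0% in Gpr115-KO (intervals between 80.0% and 89.4%). Its family with 5 copies had a log2 fold change of 0.61 (SE 0.21, adjusted p = 0.309 in edgeR).

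Rps28 took 53.8%, 58.9% and 59.1% of its family in WT (intervals between 50.05% and 61.9%) and 57.6%, 65.5% and 66.5% in Gpr115-KO (intervals between 54.7% and 69.2%). The genotypes overlapped here, since the first Gpr115-KO library lay within the WT range, and the family had 0.25 (SE 0.25, adjusted p = 0.733 in edgeR). The families of Rps10, Rpl10a and Rpl36 had log2 fold changes of 0.47, 0.52 and 0.38, larger than their rows alone, and with copies summed the subunit medians were 0.36 (large) and 0.42 (small). For Rps10, Rpl10a and Rpl36 the mean share of the gene was 69.8% ± 2.89, 77.2% ± 3.23 and 69.8% ± 2.10 in Gpr115-KO and 73.5% ± 1.64, 80.5% ± 1.24 and 74.7% ± 2.25 in WT (SD, n = 3). The shares did not overlap for Rps2 and Rps18, with Gpr115-KO above WT, nor for Rpl36 and Rpl10a, with Gpr115-KO below WT. For Rpl10a the gap was narrow, from 79.6% in Gpr115-KO replicate 3 to 79.8% in WT replicates 1 and 3, while Rps28 and Rps10 overlapped. How far read assignment between near-identical sequences enters these rows was not tested.

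**Figure D4:**
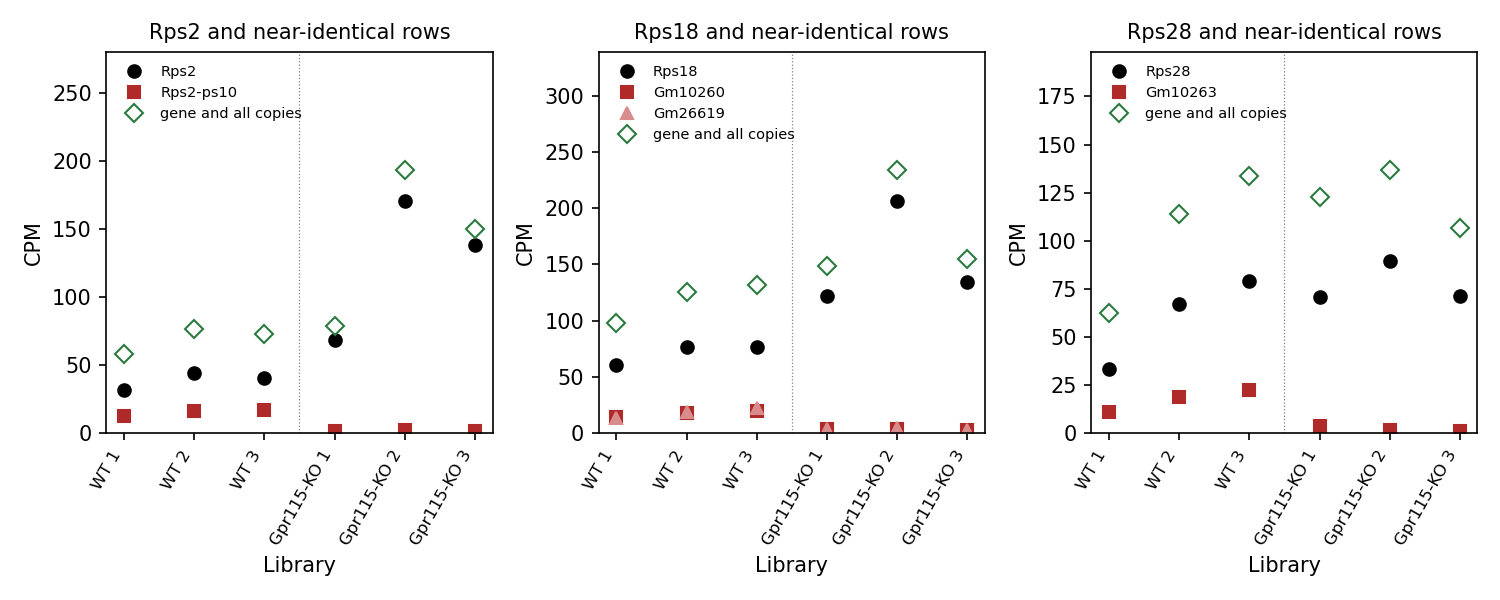
CPM (y axis) in each library (x axis) of Rps2, Rps18 and Rps28 (black circles), of their called copies (red squares and pink triangles) and of the gene summed with all its copies (open green diamonds). The called copies lie lower in all 3 Gpr115-KO libraries than in any WT library. The summed Rps2 family runs from 57.9 to 76.5 CPM in WT and from 79.0 to 194 CPM in Gpr115-KO.

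Paralog pairs were then compared within each library, where library scaling cancels. The length trend described above does not cancel where the genes of a pair differ in length. Rpl22l1 has 552 nt and Rpl22 2051 nt, and Rpl7l1 has 2606 nt and Rpl7 1163 nt. The part of length in these ratios was not tested. Of the 8 pairs 6 had both genes tested. With 3 libraries against 3, the two-sided exact permutation test cannot give a p under 0.1, so no pair could pass 0.05. Ratios are given as reads of the paralog per 100 reads of the main gene.

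Rpl22l1, a paralog that can replace Rpl22 in the ribosome, was the more abundant of its pair. It had 67.3, 97.1 and 108 CPM across WT and 120, 219 and 103 CPM across Gpr115-KO, against 47.9, 60.8 and 70.6 CPM and 66.2, 117 and 74.4 CPM for Rpl22. Per 100 reads of Rpl22 there were 141, 160 and 152 reads of Rpl22l1 in WT and 181, 187 and 138 in Gpr115-KO. The genotypes overlapped through the third Gpr115-KO library. The log2 ratio differed by 0.15 (exact permutation p = 0.4, adjusted 0.6), and per kilobase Rpl22l1 stood at 5.63 times Rpl22 in WT. Rpl22 and Rpl22l1 had log2 fold changes of 0.52 (SE 0.23) and 0.70 (SE 0.29), both with an unadjusted p under 0.05.

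Rpl7l1, a nucleolar relative of Rpl7, was the pair whose genotypes did not overlap. There were 12.9, 14.2 and 12.5 reads of Rpl7l1 per 100 reads of Rpl7 in WT and 17.7, 14.3 and 14.7 in Gpr115-KO. The second WT and second Gpr115-KO libraries were almost equal, at 14.2 and 14.3. The log2 ratio differed by 0.23 (exact permutation p = 0.1, the smallest this design gives, adjusted 0.6).

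Rps27l, which p53 can induce, stood at 0.839 times Rps27 per kilobase in WT. It had 156, 122 and 107 reads per 100 of Rps27 in WT and 125, 146 and 120 in Gpr115-KO, a difference in log2 ratio of 0.03 (exact permutation p = 0.9, adjusted 0.9). Rpl39l, known from male germ cells, had 10.3, 6.33 and 2.92 reads per 100 of Rpl39 in WT and 2.60, 3.59 and 3.55 in Gpr115-KO. The spread within WT was wider than the gap between genotypes (−0.84, exact permutation p = 0.3, adjusted 0.6). Rpl3l, the paralog of Rpl3 in heart and skeletal muscle, stayed at or under 0.823 CPM, and had 0 counts in Gpr115-KO replicate 2, which allows up to 0.321 CPM.

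The remaining pairs involve pseudogenes. Rpl6l, at 98.7% identity to Rpl6, had 18.1, 15.2 and 16.0 CPM across WT and 27.5, 35.1 and 21.1 CPM across Gpr115-KO, without overlap (log2 fold change 0.76, SE 0.21, adjusted p = 0.233 in edgeR). Per 100 reads of Rpl6 it had 8.03, 6.43 and 6.14 reads across WT and 11.8, 9.07 and 7.80 across Gpr115-KO, with 1 library of each genotype crossing (0.47, exact permutation p = 0.2, adjusted 0.6). Rps3a3, a copy of Rps3a1, had 23.4, 26.4 and 26.5 CPM across WT and 33.2, 38.8 and 32.7 CPM across Gpr115-KO (0.46, SE 0.16, adjusted p = 0.291 in edgeR). Rps4l had 6.17, 7.43 and 5.25 reads per 100 of Rps4x in WT and 4.87, 4.35 and 8.20 in Gpr115-KO (−0.16, exact permutation p = 0.7, adjusted 0.84). Reads of these rows and of their parent genes may be exchanged, as for the copies above.

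**Figure D5:**
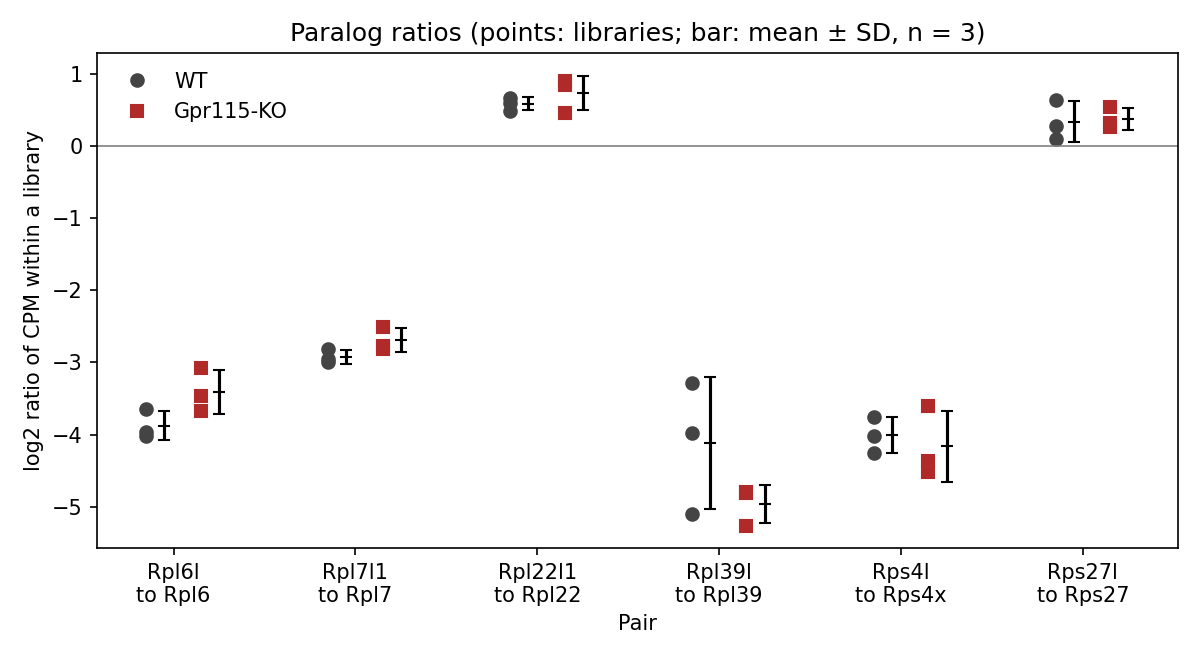
Log2 ratio of paralog to main gene CPM within each library (y axis) for 6 pairs (x axis), WT as grey circles and Gpr115-KO as red squares, with mean ± SD (n = 3). Rpl22l1 and Rps27l lie above 0, the other paralogs below, and Rpl7l1 to Rpl7 is the pair without overlap.

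Genes that build, control or accompany these proteins were read from separate lists. Of 30 ribosome biogenesis genes 16 lay above 0 (median log2 fold change 0.01), 0 were called in either direction, and 0 higher and 2 lower had an unadjusted p under 0.05, beside 4.85% and 7.48% of all genes. Those of smallest p were Wdr12 (−0.46, SE 0.17) and Polr1b (−0.65, SE 0.28), which act in large subunit maturation and as a subunit of RNA polymerase I, and Sbds (−0.40, SE 0.19), which helps release EIF6 from the large subunit. Of 22 other TOP and translation genes 16 lay above 0 (median 0.22) and 0 were called, with 0 at an unadjusted p under 0.05. The smallest p was that of Btf3 (0.36, SE 0.17), part of the nascent polypeptide-associated complex. The elongation factor Eef2 (0.47, SE 0.22) and the initiation factor subunit Eif3e (0.30, SE 0.16) followed. They were named for their p and do not stand for the direction of the whole list. The TOP list had its highest median deviation in Gpr115-KO replicate 2 (0.35), as did the ribosomal protein genes (0.60), while the biogenesis list stood at 0.03 there. Among the lists described next, mitochondrial ribosomal protein genes stood at 0.30 in that library, regulators at 0.04 and surveillance genes at 0.09.

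Of 16 regulators of TOP translation and ribosomal protein gene expression 8 lay above 0 (median −0.0096) and 0 were called, with 1 higher and 1 lower at an unadjusted p under 0.05. These were Tsc2, an inhibitor upstream of mTORC1 (0.46, SE 0.16), and Rps6kb1, an S6 kinase (−0.64, SE 0.25), and Myc had −0.37 (SE 0.20). Of the 6 genes of free ribosomal protein surveillance through p53, 2 lay above 0 (median −0.12) and 0 were called, with 0 at an unadjusted p under 0.05. Huwe1 had −0.35 (SE 0.22), Ccng1 0.28 (SE 0.19) and Mdm2 −0.21 (SE 0.15). Of 77 mitochondrial ribosomal protein genes, which serve a separate ribosome, 57 lay above 0 (median 0.15), 0 were called, 7 had an unadjusted p under 0.05 upward and 3 downward, and 53 were highest in Gpr115-KO replicate 2, beside 4.85%, 7.48% and 26.3% of all genes. Mrps10 (0.49, SE 0.18), Mrpl9 (0.48, SE 0.17) and Mrps6 (0.51, SE 0.19) had the smallest p among them.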

How the data were processed

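Per the labels' protocols, TRIzol RNA was made into Nextera XT libraries, which do not mark strand, and read as pairs of 150 nt. The submitters' processing notes name STAR 2.5.2a, edgeR, DESeq2, limma and build GRCm38. No source used here gives the counting tool. Raw counts for each gene row were deposited by the authors (48709 gene rows; 15 transgene rows with at most 8 counts in a library were left out). The authors also deposited a normalized signal, which they had made as CPM scaled by TMM, per the file name and values. That signal, divided by 1 factor per column, gave whole reads equal to the counts for 100% of values (tolerance 0.01 reads).

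Counts were tested with edgeR 4.0.16 (filterByExpr, minimum count 10, minimum total 15; TMM; robust quasi-likelihood F test, two-sided; Benjamini-Hochberg over 16011 genes, called under 0.05). SE is the absolute log2 fold change over the root of F. CPM values are counts over the TMM-scaled library size, with no pseudocount. On simulated data for this comparison (16011 genes, 200 changed) 40% of changes of 1 and 82% of changes of 2 (log2) were recovered, and 15 of 137 calls were false. A count of 1 was worth 0.0907 to 0.114 CPM.

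Copies were found with blastn 2.17.0 among GENCODE vM21 transcripts. Levels per kb use the principal transcript where one is annotated. Exons of 38 tested members overlap another gene. Pairs of libraries differed by a chi-square per degree of freedom of 14.8 to 60.7 within groups, so none was a repeat.

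Members, lists and alternatives were chosen with earlier results of these data known. Named were members on chromosome 17, paralog pairs, the 6 smallest p in each direction, the 4 highest and lowest levels, 10 fixed genes and any called member (40 in all), and up to 3 genes per list. Names outside it (non-overlapping members, the called copies) were chosen after their values were seen. The leukocyte, keratinizing epithelium and odontoblast markers had median log2 fold changes of 0.29, 0.22 and −0.08, with 0 called.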

Additional observations from a re-analysis of the deposited data

How the results depend on the processing

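The count of 0 lower members held in all 20 alternatives, 1 of which, edgeR on recovered reads, could not differ. The count of higher members was 3 with no count filter (Rps2, Rps18, Rpl6l), 2 with DESeq2, 2 with the replicate block 1 without Gpr115-KO replicate 1 (Rps2) and 0 otherwise, a range of 0 to 1 with 1 library left out. With the replicate block the edgeR adjusted p was 0.0059 for Rps2 and 0.0286 for Rps18, and all genes gave 18 higher and 54 lower calls against 6 and 18. Same-numbered libraries correlated at 0.27, 0.03 and −0.07, and not every library correlated best with its own number, so the numbers were not taken as pairs. DESeq2 gave 65 and 184 calls over all genes, no filter 135 and 365, and leaving out Gpr115-KO replicate 1 gave 9 and 39. The subunit medians ran from 0.09 to 0.43 (large) and 0.13 to 0.52 (small) with 1 library left out, and were −0.057 and 0.0089 with WT replicate 1 and Gpr115-KO replicate 2 left out. Library totals alone moved the median of all genes from 0.01 to 0.09, and the subunit medians to 0.38 and 0.47. EdgeR on recovered reads gave the same counts of calls as the deposited counts. Those reads equal the deposited counts, so this is no separate check. The 2-library omission, the principal transcript length trend and the recovered reads were chosen after seeing the data.

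Some named members changed sign, none of them called, among them Rpl39, Rpl41, Rps19, Rps10 and Rps28, which had 0.37 to 0.47 with all libraries. On library totals the values were Rpl23 0.061 and Rps25 0.0696. With copies summed the values were Rpl23 0.098 and Rps25 0.018. With the exonic length trend removed the values were Rpl3 −0.0015 and Rplp2 −0.055. With the principal transcript trend removed the values were Rpl3 −0.085, Rpl36 −0.015, Rplp1 −0.027, Rplp2 −0.16 and Rps27 −0.039. In limma-trend the values were Rpl3 −0.0014 and Rplp2 −0.00085. With WT replicate 1 and Gpr115-KO replicate 2 left out the values were Rpl3 −0.18, Rpl36 −0.15, Rpl39 −0.088, Rpl41 −0.12, Rpl7l1 −0.041, Rplp0 −0.0598, Rplp1 −0.22, Rplp2 −0.28, Rps10 −0.039, Rps19 −0.0046, Rps27 −0.18, Rps27l −0.069 and Rps28 −0.037. With 1 library left out in turn the range was −0.12 to 0.078 for Rpl23, −0.12 to 0.17 for Rpl3, −0.52 to 0.042 for Rpl39l, −0.041 to 0.13 for Rpl7l1, −0.019 to 0.45 for Rplp1, −0.15 to 0.14 for Rplp2, −0.44 to 0.073 for Rps12, −0.17 to 0.17 for Rps25 and −0.035 to 0.59 for Rps27. The cause was not tested, beyond the smaller number of libraries. Depth limits Rpl3l, Rps12l1 and Rpl39l, with 17, 48 and 206 counts in all.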
